A study of Mus musculus with 7 samples.

Results

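The genes described here are 10 genes of myoepithelial contraction, chosen by name out of the 37310 genes of the count file: *Oxtr*, *Acta2*, *Actg2*, *Myh11*, *Myl9*, *Mylk*, *Cnn1*, *Tagln*, *Tpm2* and *Trp63*. Whole mammary glands of C57BL/6 female mice were sequenced at lactation day 1 (L1). The 3 WT libraries come from *Tardbp* wt/wt mice with the WAP-Cre transgene and the 4 *Tardbp* KO libraries from *Tardbp* flox/flox mice with WAP-Cre, so both genotypes carry Cre. The floxed allele loses exons 2 and 3 of *Tardbp*, the gene of the RNA-binding protein TDP-43. The WAP promoter is that of a whey protein gene and works in luminal epithelial cells from mid pregnancy to lactation, so the cells in which these 10 genes are best known are not those in which Cre is driven.

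Myoepithelial cells are the basal, muscle-like cells that surround the alveoli and ducts of the mammary gland. Oxytocin released during suckling binds its receptor on these cells, calcium rises and activates the myosin light chain kinase, and myosin pulls on filaments of smooth muscle actin, so that milk is pressed into the ducts. Most of these proteins are shared with vascular smooth muscle and pericytes, and in RNA of a whole gland the sources of the transcripts are mixed. A lower value in such tissue can mean fewer cells of a type or less RNA per cell, which cannot be told apart.

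Libraries held between 36007737 and 42811337 counts, of which 0.131% to 0.198% lay on the 10 genes in 6 libraries and 0.384% in KO replicate 1. The share of counts on milk protein genes was 28.9% ± 4.41 (SD, n = 3) for WT and 17.1% ± 4.11 (SD, n = 4) for KO. Levels are therefore given in edgeR's CPM unit, counts brought to a common library size with the TMM factors. *Tardbp* itself lay at 187 ± 32.6 CPM over the WT libraries (SD, n = 3) and at 188 ± 28.2 CPM over the KO libraries (SD, n = 4); most of its counted exon length lies outside the deleted part, so this value does not check the labels, and every direction below rests on them. Only lane 4 of the sequencer held both genotypes (WT replicate 2, KO replicates 3 and 4), and KO replicate 1 was alone on lane 1. Luminal, basal and milk protein genes were present in every library, and skeletal muscle markers summed to between 6.36 and 13.1 CPM.

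No difference between WT and *Tardbp* KO glands passed the test for any of the 10 genes at L1. The median log2 fold change (KO minus WT) of the 10 was −0.06, with 6 below 0 and 4 above, where the median of all 17175 genes tested was 0.05 and 45.7% were below 0. A gene was called at an adjusted p under 0.01 with an absolute log2 fold change above 1. By edgeR's quasi-likelihood test 0 of the 10 were called, with a background of 0% over all genes, and 0 had an unadjusted p under 0.05, against 21.4% of all genes. The exact test of edgeR called 2.48% of all genes and 0 of the 10. DESeq2's Wald test called 568 of the 17175 genes and 0 of the 10. In 0 of the 10 did the levels of the genotypes separate, against 18.7% of all genes. The 2-sided exact permutation test of log2 CPM gave p between 0.2 and 1 for the 10 genes, where 3 libraries against 4 cannot go below 0.0286.

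**Figure D1:**
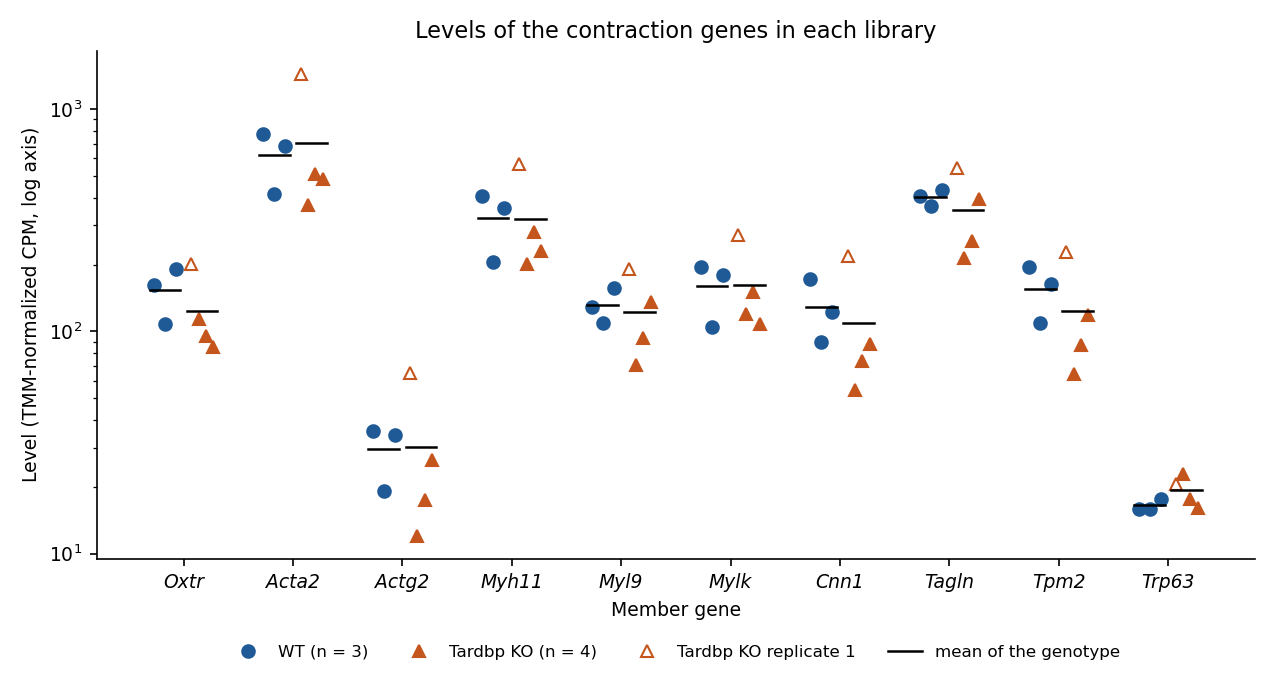
Level of each of the 10 genes in each library (TMM-normalized CPM, log axis), with circles for WT, triangles for *Tardbp* KO, an open triangle for KO replicate 1 and black lines for the means. The genotypes overlap for every gene, and KO replicate 1 holds the highest value of the 7 libraries for 9 of the 10 genes, *Trp63* being the exception.

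The receptor was the first step examined. *Oxtr* (ENSMUSG00000049112.7; NCBIM37 chr6:112423678-112440884, minus strand) encodes the G protein-coupled receptor for oxytocin. WT replicates 1 to 3 had 161, 108 and 191 CPM, and the KO libraries, in the same order of replicates, 201, 113, 94.99 and 85.2 CPM. KO replicate 1 was the highest and KO replicates 3 and 4 were below all WT libraries, so the genotypes overlapped. The means were 153 ± 42.2 CPM (SD, n = 3) and 124 ± 53.1 CPM (SD, n = 4). The log2 fold change was −0.31 (standard error 0.317, 95% confidence interval −1.03 to 0.41, adjusted p = 0.622 by edgeR's quasi-likelihood test).

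The actins and myosin of the contractile filaments came next. *Acta2* (ENSMUSG00000035783.8; chr19:34315580-34329826, minus strand) encodes smooth muscle alpha-actin, the usual marker of myoepithelial cells. It lay at 773, 415 and 685 CPM in the WT libraries and at 1442, 369, 512 and 487 CPM in the KO libraries. KO replicate 1 was thus 2.31 times the WT mean, while the other KO libraries lay within or below the WT range. The means were 624 ± 187 CPM (SD, n = 3) and 702 ± 497 CPM (SD, n = 4), and the log2 fold change was 0.17 (standard error 0.467, interval −0.89 to 1.23, adjusted p = 0.871). *Actg2* (ENSMUSG00000059430.8; chr6:83462899-83486259, minus strand), the gamma-actin of enteric smooth muscle, was less abundant, with 35.5, 19.2 and 34.1 CPM in WT and 64.7, 12.1, 17.4 and 26.3 CPM in KO. Its libraries spread 5.36-fold from lowest to highest, the widest range of the 10 genes, and its log2 fold change was 0.02 (standard error 0.520, interval −1.16 to 1.2, adjusted p = 0.988). Actin genes are similar in coding sequence, and reads that mapped to several places were not counted. The levels of *Acta2* and *Actg2* may therefore be less certain than the others, and the loss of reads was not measured.

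*Myh11* (ENSMUSG00000018830.7; chr16:14194620-14291501, minus strand), the smooth muscle myosin heavy chain, had 406, 206 and 359 CPM in WT and 568, 200.02, 279 and 229 CPM in KO. WT replicate 2 lay close to the lowest KO library, and the log2 fold change was −0.02 (standard error 0.385, interval −0.89 to 0.85, adjusted p = 0.984). *Myl9* (ENSMUSG00000067818.6; chr2:156601156-156607394, plus strand), the regulatory light chain that is phosphorylated to start contraction, had 128, 109 and 156 CPM in WT and 191, 70.4, 93.9 and 135 CPM in KO. KO replicates 2 and 3 were below and KO replicate 1 above every WT library, and the log2 fold change was −0.10 (standard error 0.315, interval −0.81 to 0.62, adjusted p = 0.891). *Mylk* (ENSMUSG00000022836.9; chr16:34745296-35002520, plus strand), the calcium-activated kinase of that light chain, had 196, 105 and 178 CPM in WT and 272, 119, 150.4 and 108 CPM in KO. Here KO replicates 2 to 4 lay between the lowest and the highest WT library, and the log2 fold change was 0.02 (standard error 0.346, interval −0.76 to 0.81, adjusted p = 0.979).

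All 3 thin filament genes had log2 fold changes below 0, and none passed the test. *Cnn1* (ENSMUSG00000001349.4; chr9:21903725-21914074, plus strand) encodes calponin, which binds actin and slows the myosin motor. It had 173, 89.6 and 123 CPM in WT and 219, 54.8, 73.6 and 88.0 CPM in KO. KO replicates 2 to 4 were below every WT library and KO replicate 1 above every one, and the log2 fold change was −0.24 (standard error 0.450, interval −1.26 to 0.78, adjusted p = 0.805). *Tagln* (ENSMUSG00000032085.4; chr9:45737711-45744141, minus strand), the actin cross-linking protein transgelin, was the steadiest contractile gene in WT, with 405, 366 and 433 CPM. In KO it had 543, 215, 255 and 395 CPM, a log2 fold change of −0.19 (standard error 0.305, interval −0.88 to 0.50, adjusted p = 0.767). Of the *Tagln* exon bases, 4.10% lie under exons of *Pcsk7* on the opposite strand, and a read over both was left out of the counts. *Tpm2* (ENSMUSG00000028464.9; chr4:43527583-43536637, minus strand), the beta-tropomyosin that lies along the actin filament, had 196, 109 and 163 CPM in WT and 227, 64.2, 86.6 and 118 CPM in KO. Its log2 fold change of −0.33 was the lowest of the 10 (standard error 0.402, interval −1.24 to 0.58, adjusted p = 0.683), with 2 KO libraries below and 1 above the WT range.

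*Trp63* (ENSMUSG00000022510.8; chr16:25683849-25892188, plus strand) is the transcription factor of the basal epithelial lineage and not a contractile protein. It was nearly level across libraries, at 15.9, 15.9 and 17.6 CPM in WT and 20.5, 22.9, 17.7 and 16.1 CPM in KO. The libraries spread 1.44-fold, against 2.36-fold to 5.36-fold for the other 9 genes. Its log2 fold change of 0.23 was the highest of the 10 and had the narrowest interval (standard error 0.166, interval −0.15 to 0.60, adjusted p = 0.476).

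The intervals give the size of difference these libraries leave possible. For 5 of the 10 genes (*Myh11*, *Myl9*, *Mylk*, *Tagln* and *Trp63*) the interval lay between −1 and 1 on the log2 scale. For *Oxtr*, *Cnn1* and *Tpm2* it reached below −1, for *Acta2* above 1 and for *Actg2* past both. A log2 difference of 1 thus stayed within the interval of these other 5 genes.

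KO replicate 1 decided the direction of several of these values. It held the highest level of 9 of the 10 genes, where 14.6% of all tested genes had their highest level in it. KO replicate 2 held the lowest level of 7 of the 10, where 10.2% of all tested genes did. Expressed as the median of the 10 genes on the log2 scale, relative to the WT mean, WT replicates lay at 0.33, −0.47 and 0.20 and KO replicates at 0.70, −0.80, −0.56 and −0.33. The spread within each genotype was as large as the distance between them.

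**Figure D2:**
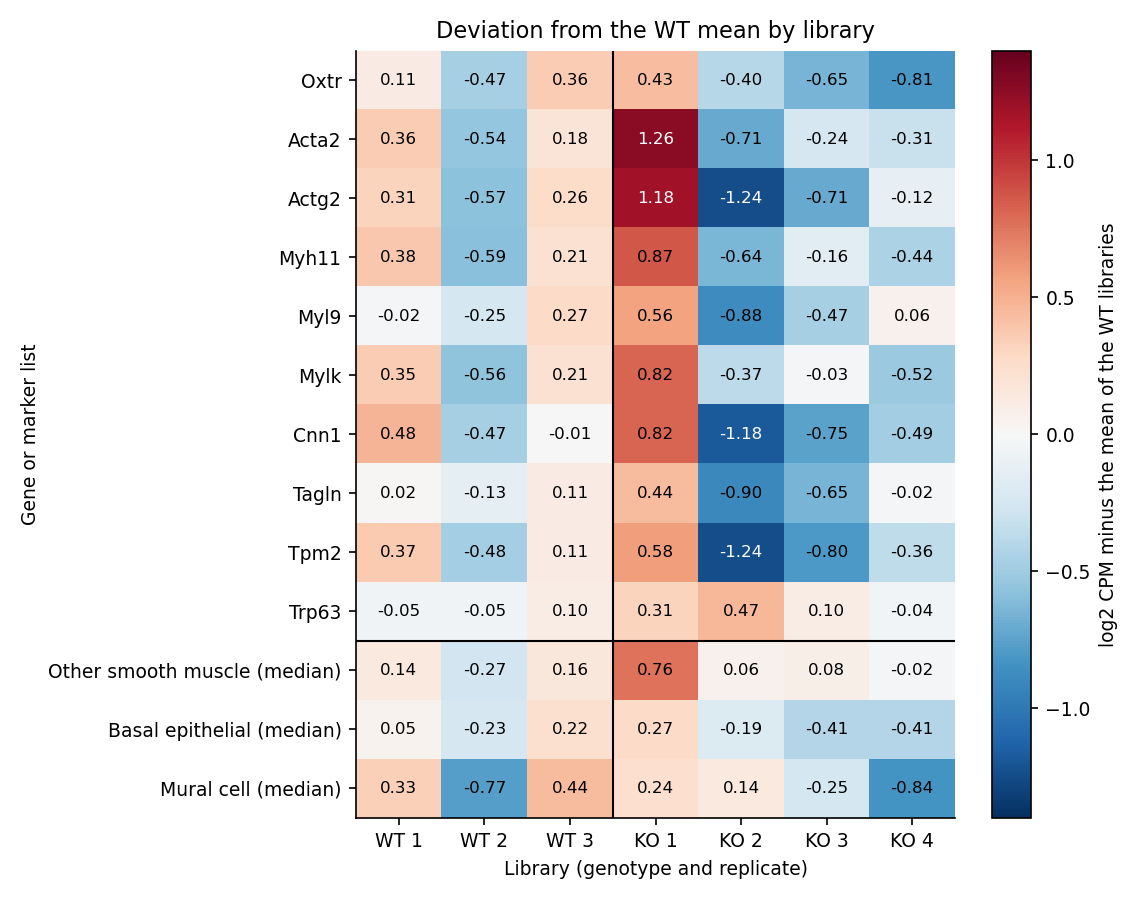
Heat map of log2 CPM minus the mean of the 3 WT libraries (color and printed value), with genes and marker lists in rows and the 7 libraries in columns. KO replicate 1 is red for all 10 genes and reaches 1.26 for *Acta2*, while in KO replicates 2 to 4 most of the contractile genes are below 0; the median of the basal epithelial markers is 0.27 and that of the mural cell markers 0.24 in KO replicate 1.

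Without KO replicate 1, 9 of the 10 log2 fold changes were below 0 and their median was −0.46, where 46.1% of all genes were below 0 and the median of all genes was 0.05. *Acta2* turned from 0.17 to −0.45, *Actg2* from 0.02 to −0.67 and *Mylk* from 0.02 to −0.34. Unadjusted p-values under 0.05 by edgeR's quasi-likelihood test were then found for *Cnn1* (log2 fold change −0.83, interval −1.45 to −0.20), *Tpm2* (−0.79, interval −1.45 to −0.14) and *Oxtr* (−0.65, interval −1.18 to −0.11), that is 3 of 10, against 10.3% of all genes with such a p and a negative value. None passed after adjustment, the lowest adjusted p being 0.165 for *Cnn1*. *Cnn1* was then also the only one of the 10 whose KO libraries all lay below WT, as 12.7% of all genes did. *Trp63* stayed at 0.20. Markers of the basal epithelium, to which myoepithelial cells belong, and of mural cells were mostly below 0 without KO replicate 1 too. This held for 9 of 12 basal markers (median −0.37, 5 with an unadjusted p under 0.05 in either direction) and 10 of 12 mural markers (median −0.30, 0 with such a p). Endothelial and fibroblast markers were below 0 in 8 of 10 and 7 of 10 cases. Adipocyte, luminal and lymphocyte markers were above 0 in 7 of 8, 6 of 8 and 10 of 10 cases. The part of any of these cell types in the values of the 10 genes was not tested. Leaving out WT replicate 2, the lowest WT library for all 10 genes, gave 9 of 10 below 0 with a median of −0.23.

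**Figure D3:**
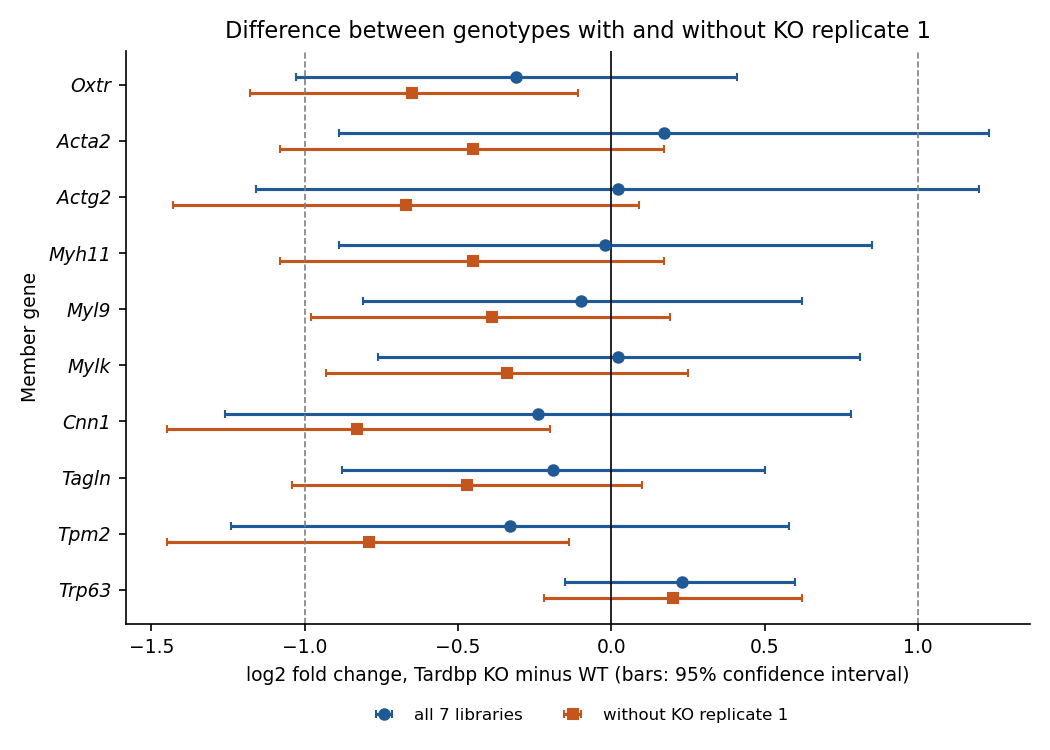
Log2 fold change (*Tardbp* KO minus WT) of each gene with its 95% confidence interval, with circles for all 7 libraries and squares without KO replicate 1; dashed lines mark −1 and 1. Every interval from all libraries includes 0, and without KO replicate 1 those of *Oxtr*, *Cnn1* and *Tpm2* lie below 0.

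Within lane 4, where WT replicate 2 met KO replicates 3 and 4, the log2 fold change was −0.26 for *Oxtr*, 0.27 for *Acta2*, 0.30 for *Myh11*, 0.28 for *Mylk* and −0.16 for *Cnn1*, with a median of 0.06 over the 10 genes. With 1 WT library there was no test. Lane 1 and KO replicate 1 cannot be told apart. Scaled by library size alone, the median of all genes moved to 0.42, and that of the 10 genes to 0.31. *Acta2* then lay at 0.55 and *Trp63* at 0.60, and the other 8 genes between 0.04 and 0.42.

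Levels between genes were compared per length, as RPKM, the CPM divided by the exon length in kilobases. *Acta2* had the highest level in WT, with 351 ± 105 RPKM (SD, n = 3), followed by *Tagln* with 253 ± 21.3 and *Myl9* with 113 ± 20.3. *Acta2* and *Tagln* overlapped in range, and both lay above *Myl9* in every WT library. *Cnn1* (54.2 ± 17.7), *Tpm2* (53.5 ± 15.1) and *Myh11* (48.8 ± 15.8) could not be separated. *Oxtr* followed with 29.9 ± 8.24 RPKM, then *Actg2* with 19.0 ± 5.79 and *Mylk* with 15.0 ± 4.56, each overlapping its neighbour. *Trp63* was last with 1.96 ± 0.115 RPKM and stood apart. In KO the same genes held ranks 1 to 3 and 7 to 10, and only *Myh11*, *Cnn1* and *Tpm2* changed places, within their spread. In WT *Acta2* lay above 99.6% and *Oxtr* above 90.3% of the tested genes.

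**Figure D4:**
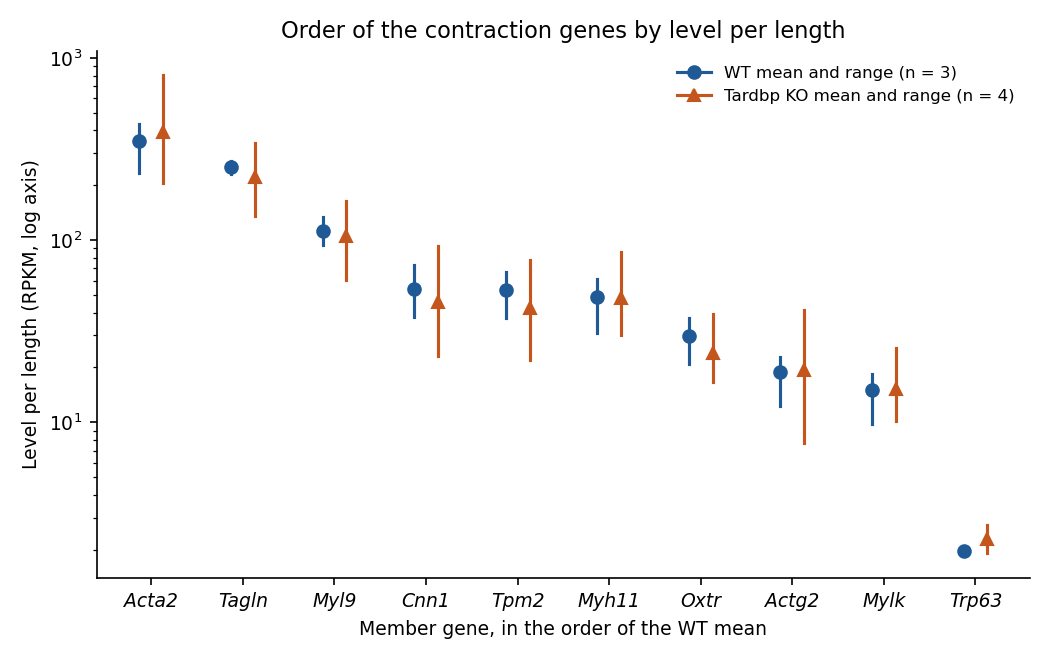
Mean level per length (RPKM, log axis) of each gene in the order of the WT means, with circles for WT, triangles for *Tardbp* KO and lines from the lowest to the highest library. *Acta2* is at the top in both genotypes and *Trp63* at the bottom, and the ranges of the genotypes overlap for every gene.

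Relative to *Acta2*, several genes kept a nearly fixed ratio in the WT libraries. On the log2 scale *Myh11* lay at −0.93, −1.01 and −0.93 and *Mylk* at −1.98, −1.99 and −1.94. In KO the same differences were −1.34, −0.88, −0.87 and −1.09 for *Myh11* and −2.41, −1.63, −1.77 and −2.18 for *Mylk*. The KO libraries thus scattered on both sides of WT. *Cnn1* lay at −2.16, −2.21 and −2.48 in WT and at −2.72, −2.75, −2.80 and −2.47 in KO, and *Tpm2* at −1.98, −1.93 and −2.07 in WT and at −2.67, −2.52, −2.56 and −2.04 in KO. For both, 3 of the 4 KO libraries had a lower ratio to *Acta2* than any WT library, and the fourth overlapped. For these ratios KO replicate 1 is among the low libraries, unlike for the levels.

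The gene whose pattern over the 7 libraries was nearest to that of *Acta2* was *Myh11*, by the root mean square difference of centred log2 CPM among 9381 other genes with a mean of at least 10 CPM (0.153). *Mylk*, *Cnn1* and *Actg2* ranked 5, 6 and 7. Outside the gene lists used here, *Prdm11* (0.172), the junctophilin gene *Jph2* (0.219) and the tubulin gene *Tuba1b* (0.227) were nearest to *Acta2*. Of the other members, *Tpm2* ranked 18, *Myl9* 56, *Oxtr* 81, *Tagln* 94 and *Trp63* 2928 from *Acta2*. Measured from *Oxtr*, the nearest of the 10 contraction genes was *Mylk* at rank 95 (0.252). Nearest to *Oxtr* were *Myadm* (0.115), *Hspa12b* (0.119) and *Nrarp* (0.125), and *Myadm* had 73.7, 42.3 and 79.1 CPM in WT and 103, 52.9, 40.5 and 36.9 CPM in KO. These rankings describe 7 libraries that differ in genotype, lane and depth, and the part of each in the likeness was not tested.

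Promoter letters were read because 9 of the 10 genes had their highest level in the same library, and serum response factor (SRF), a known regulator of smooth muscle genes, binds the CArG box. RefSeq promoters (GRCm38.p6, from 250 bases before to 50 after the start) were at hand for 6 of the 10 genes: *Oxtr*, *Acta2*, *Myl9*, *Mylk*, *Cnn1* and *Tpm2*. The box reads the same on both strands. A full CArG box stood in the promoter of *Myl9* alone of the 6, and 1.63% of all 32851 promoters held one. With 1 letter off, *Acta2* and *Myl9* held matches, as 21.1% of all promoters did. The sites are shown here 5′ to 3′ on the strand of the gene, with the box in capitals.
Myl9, full box, chr2:156775293-156775322, plus strand, 161 bases before the start: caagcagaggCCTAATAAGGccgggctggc
Myl9, 1 letter off, chr2:156775355-156775384, plus strand, 99 bases before the start: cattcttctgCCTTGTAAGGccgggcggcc
Acta2, 1 letter off, chr19:34255438-34255467, minus strand, 84 bases before the start: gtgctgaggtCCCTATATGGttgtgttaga
Acta2, 1 letter off, chr19:34255388-34255417, minus strand, 34 bases before the start: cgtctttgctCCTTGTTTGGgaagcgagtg
These are matches of letters, and no match in the other promoters says only that the window does not hold them. All 6 genes had their highest level in KO replicate 1, and the part of SRF in these levels was not tested.

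Since TDP-43 binds UG-rich RNA, runs of at least 3 UG (TG in the DNA letters) were counted per gene in the annotated transcript of greatest length. Of the 10 genes 8 held a run, and 71.5% of 15112 tested genes with a protein-coding transcript did. *Mylk* had 7 runs in 7824 bases, more than 96% of these genes, while *Myl9* (1128 bases) and *Tpm2* (2175 bases) had 0. The median transcript was 2909 bases long, and the counts of runs were not corrected for length. The longest run of the 10 genes lies in the 3′ UTR of *Mylk* and is shown with its repeats in capitals.
Mylk, NCBIM37 chr16:35001962-35001991, plus strand, 7 repeats: cgtgtgcgTGTGTGTGTGTGTGtctaacat
The log2 fold change of *Mylk*, 0.02, and those of *Myl9* and *Tpm2*, −0.10 and −0.33, had intervals that overlap.

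The other genes of the pathway were taken from lists. In the lists of the pathway, of SRF, of smooth muscle, of basal and of mural cells, 0 genes were called by the quasi-likelihood test, by edgeR's exact test or by DESeq2. For the counts that follow, 21.4% of all genes had an unadjusted p under 0.05 by the quasi-likelihood test. The genotypes did not overlap, in either direction, for 18.7% of all genes. Of 21 genes that carry the oxytocin signal to contraction, 0 were called, 12 were above and 9 below 0, 4 had an unadjusted p under 0.05, and the median log2 fold change was 0.05. *Gnaq*, the G protein subunit that couples the receptor to phospholipase C, had a log2 fold change of −0.15 (adjusted p = 0.537), and *Rock1*, a kinase that keeps the light chain phosphorylated, 0.10 (adjusted p = 0.681). *Orai1*, the plasma membrane channel through which calcium stores are refilled, had the lowest value of the list. It lay at 179, 143 and 225 CPM in WT and at 75.8, 98.1, 81.0 and 132 CPM in KO, with all 4 KO libraries below WT, and its log2 fold change of −0.92 did not pass (standard error 0.231, adjusted p = 0.0897 by edgeR's quasi-likelihood test). It is also a gene of calcium transport in luminal cells, and its source in the gland was not separated here. *Rgs2*, an inhibitor of G protein signalling, had the highest value, 0.67 (adjusted p = 0.455).

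Of 16 other smooth muscle contractile genes 0 were called, 13 were above and 3 below 0, with 1 unadjusted p under 0.05 and a median of 0.22. They had their highest level in KO replicate 1 in 14 of 16 cases, and without it 8 were above and 8 below 0 with a median of 0.04. The lowest was *Ppp1r14a*, an inhibitor of the light chain phosphatase (−0.26, adjusted p = 0.775), and the highest *Des*, the intermediate filament desmin (0.76, adjusted p = 0.397). *Actn1* (0.71, adjusted p = 0.150) and *Csrp1* (0.41, adjusted p = 0.293), named after their values were seen, were the 2 of 16 whose KO libraries all lay above WT. Of all genes, 18.7% had no overlap in either direction.

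SRF and its coactivators had log2 fold changes above 0, none past the threshold and 2 with an unadjusted p under 0.05. *Srf* had 65.4, 80.2 and 74.3 CPM in WT and 118, 83.7, 80.7 and 97.5 CPM in KO (log2 fold change 0.37, adjusted p = 0.243). *Mkl2*, a coactivator of SRF that answers to free actin, had 21.5, 45.5 and 46.2 CPM in WT and 58.7, 104, 92.2 and 68.3 CPM in KO (1.10, adjusted p = 0.102). *Mkl1*, its relative, named after its values were seen, had a log2 fold change of 0.63 (adjusted p = 0.0931). For these 3 genes all KO libraries lay above all WT libraries, where 18.7% of all genes had no overlap in either direction. *Myocd*, the SRF coactivator of vascular smooth muscle, lay between 0 and 0.386 CPM and was not tested for lack of counts.

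The 10 genes were set beside markers of the cells that could carry them. Of 12 basal epithelial markers 0 were called, 1 had an unadjusted p under 0.05, 8 were below 0 and the median log2 fold change was −0.30. *Krt5* had 187, 123 and 196 CPM in WT and 165, 116, 87.9 and 85.6 CPM in KO (−0.57, adjusted p = 0.256), and *Krt14* had 152, 141 and 211 CPM in WT and 191, 83.4, 73.5 and 107 CPM in KO (−0.57, adjusted p = 0.353). In KO replicate 1 both keratins lay inside the WT range while *Acta2* was 2.31 times the WT mean. *Itgb4*, the integrin of hemidesmosomes, was the highest of the list (0.77, adjusted p = 0.139) and the only one whose KO libraries all lay above WT. Relative to the mean of the basal markers, the mean of the 10 genes lay at 1.24, 0.86 and 1.05 in WT and at 1.43, 0.70, 1.05 and 1.11 in KO on the log2 scale, so that KO replicate 1 was above the WT range, KO replicate 2 below it and the other 2 within it.

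Of 12 mural cell markers, genes of pericytes and vascular smooth muscle, 0 were called, 0 had an unadjusted p under 0.05 and 8 were below 0, with a median of −0.09. *Rgs5* had 94.1, 47.8 and 96.1 CPM in WT and 79.4, 75.3, 73.9 and 35.5 CPM in KO (−0.26, adjusted p = 0.681), and *Notch3* a log2 fold change of 0.18 (adjusted p = 0.656). *Heyl* was the lowest (−0.68) and *Abcc9* the highest (0.25). Relative to the mean of the mural markers the 10 genes lay at 3.22, 3.62 and 3.06 in WT and at 3.69, 2.37, 3.15 and 3.80 in KO, with the lowest in KO replicate 2, where the contractile genes were lowest. KO replicate 4 was the lowest library for 9 of the 12 mural markers and for 1 of the 10 contraction genes. It was also the lowest for 9 of 10 endothelial and 10 of 10 fibroblast markers, and for 15.1% of all tested genes.

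Other cell types differed between libraries too. Markers of lymphocytes summed to between 40.5 and 59.2 CPM in WT and between 66.0 and 616 CPM in KO, with 463 CPM in KO replicate 1. Fibroblast markers summed to between 1081 and 2940.0 CPM in WT and between 748 and 3173 CPM in KO, and adipocyte markers to between 2370.0 and 3903 and between 2641 and 6619 CPM. The quasi-likelihood test called 0 genes of any list, as it did over all genes, and the other tests called some of these markers. Of the 10 lymphocyte markers 10 had an unadjusted p under 0.05, edgeR's exact test called 5 and DESeq2 called 8, all higher in KO. All 7 milk protein genes had KO libraries below WT, with a median log2 fold change of −1.10. Among them 5 had an unadjusted p under 0.05, and the exact test and DESeq2 each called 3. The median of the endothelial markers was −0.11. Both of these tests called 1 of 10, *Cldn5*, a claudin of endothelial junctions (log2 fold change 1.06). Luminal epithelial markers had a median of 0.40, with 3 of 8 at an unadjusted p under 0.05 and 0 called by either test. Of the skeletal muscle markers *Tnnc2* had 0 counts in every library and the myoglobin gene *Mb* lay between 2.68 and 10.4 CPM, the others at or below 2.60 CPM. The part of these cell types in the values of the 10 genes was not tested.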

How the data were processed

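RNA of mammary gland tissue (Trizol, TruSeq RNA kit) was sequenced by the authors as paired-end reads. The deposited values are raw counts per gene, which the authors made with featureCounts 1.4.6-p5 on exons of GENCODE vM1 after mapping with STAR to NCBIM37 (mm9); the processing notes give STAR 2.5.2a. The command line sets no option for strand, pairs or multimapping reads, and names 1 further library that is not analysed here. Genotypes were taken from the labels.

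Mitochondrial (37) and ribosomal (580) genes were removed, and genes had to reach 5 counts in no fewer than 4 of 7 libraries, which left 17175 for edgeR 4.0.16 in R 4.3.3 (TMM, quasi-likelihood test, Benjamini-Hochberg adjustment; called at adjusted p under 0.01 and absolute log2 fold change above 1). All 10 genes passed the filter, with 424 to 54321 counts per library. Permutation tests, RPKM (exon length of the file) and distances used log2 CPM with a prior count of 2 or CPM. The test was checked on simulated data. DESeq2 1.42.0 was an alternative, beside other normalizations, filters and tests, each library left out, a replicate block and lane 4 only.

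The members and gene lists were chosen with earlier results of these data known. Beside the 10 genes, the text names for each list, by rule, a few fixed genes and those with the lowest and highest log2 fold change, and the 3 genes nearest to *Acta2* and to *Oxtr*. The values of 1 of the fixed genes are not reported here. The labels number the libraries without saying which mice they are, and p-values measure the spread between these libraries, counting error included. Python 3.11.15 with scipy 1.17.1 and pandas 2.3.3 made the tables.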

Additional observations from a re-analysis of the deposited data

Results flagged for a closer look

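*Acta2* in KO replicate 1 stood apart from the other 3 KO libraries. The gap between its 1442 CPM and the next library, 512 CPM, was 0.867 of the range of the 4 KO libraries, above the limit of Dixon's test for 4 values at 95%. The same ratio was between 0.352 and 0.798 for the other 9 genes, none past the limit. The ratio was taken on CPM and not on the log2 scale, where high values weigh less. There *Acta2* lay at 1.26, −0.71, −0.24 and −0.31 in the KO libraries, relative to the WT mean. By chance about 1 in 20 groups passes this limit, and 10 genes were examined, which are not independent of each other.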

How the results depend on the processing

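The count of called genes was 0 of 10 under every alternative run, with adjusted p-values no lower than 0.0873 (*Trp63*, library size only). The median log2 fold change of the 10 genes lay between −0.46 (without KO replicate 1) and 0.12 (without KO replicate 2) with 1 library left out, and at 0.31 with library size only. The number below 0 was 4 to 9 with 1 library left out (9 without KO replicate 1 or WT replicate 2) and 0 with library size only. The number of genes whose genotypes did not overlap was 0 to 1 with 1 library left out. The gene was *Cnn1* without KO replicate 1 and *Trp63* without WT replicate 3 or KO replicate 4. The number was 1 with library size only and 6 within lane 4, where fewer libraries make separation easier. Apart from *Cnn1*, these counts have no share over all genes beside them, and nothing is read from them.

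Of 200 recomputed fold changes of single genes, 175 kept their sign and 25 turned it. With library size only the reversed values were 0.07 (*Oxtr*), 0.37 (*Myh11*), 0.25 (*Myl9*), 0.14 (*Cnn1*), 0.16 (*Tagln*) and 0.04 (*Tpm2*). Within lane 4 they were 0.30 (*Myh11*) and 0.04 (*Myl9*). With 1 library left out, *Acta2* ranged from −0.45 to 0.39, *Actg2* from −0.67 to 0.29 and *Mylk* from −0.34 to 0.20, below 0 for each without KO replicate 1 and without WT replicate 2 (−0.05, −0.21 and −0.20). *Cnn1* ranged from −0.83 to 0.04 (above 0 without WT replicate 1), *Myl9* from −0.39 to 0.10 with 0.02, 0.05 and 0.10 (without KO replicate 3, WT replicate 3 and KO replicate 2) and *Myh11* from −0.45 to 0.18, with 0.18, 0.06, 0.15, 0.04 and 0.09 (without WT replicates 1 and 3 and KO replicates 2, 3 and 4). The cause of these turns was not tested.

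With the replicate number as a block the median was −0.23, 0 genes were called, and *Actg2* (−0.27) and *Myh11* (0.02) changed sign. Deviations of same-numbered libraries correlated at 0.351, 0.0941 and −0.058, and those of differently numbered libraries between −0.388 and 0.254. With so few pairs, these values cannot settle whether the numbers pair the libraries. Depth gave at least 424 counts per library for each of the 10 genes.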
